A study of Mus musculus with 8 samples.

Results

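A set of 9 genes of the presynaptic machinery for fast transmitter release were examined in ribosome-associated mRNA of parvalbumin-expressing (PV+) interneurons of the mouse primary somatosensory cortex (S1). They were taken by gene name and are the calcium sensors *Syt1*, *Syt2* and *Syt7*, the complexins *Cplx1* and *Cplx2*, the vesicle SNAREs *Vamp1* and *Vamp2*, and the plasma membrane SNAREs *Stx1a* and *Snap25*, which makes 9 of the 45706 genes in the files. All 8 samples came from PvalbFlp/+;Neurod6Cre/+ mice, labelled as postnatal day 42 to 70, that had been infected at postnatal day 1 with an AAV whose construct is named flox-fdio-HA-RPL10a-T2A-myc-hM3Dq. The construct expresses an HA-tagged ribosomal protein, by which ribosomes and their bound mRNA are pulled down, together with hM3Dq, a receptor that raises the activity of a neuron when its ligand clozapine-N-oxide (CNO) is given. It needs Flp to be expressed and is removed by Cre, so it is meant for PV+ cells outside the *Neurod6* lineage of pyramidal cells. The CNO group (n = 4 samples) received 5 injections of 1 mg/kg over 48 h and the vehicle group (n = 4 samples) received vehicle instead, in mice with the same alleles and virus. Each sample was pooled from 4 brains with sparse infection, so n counts pools and not mice. Mice given CNO without hM3Dq were not analysed here. The comparison asks how a sustained rise in the activity of PV+ interneurons alters what they translate, and here how it bears on the genes that set the speed of their release.

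Fast release needs a vesicle that is docked and primed at the active zone and a sensor that reads calcium within the shortest time. The vesicle SNARE, synaptobrevin, zippers with syntaxin and SNAP25 on the plasma membrane, complexin binds the assembled bundle and both restrains and promotes fusion, and synaptotagmin couples calcium to fusion. Many fast-spiking PV+ basket cells use synaptotagmin 2 as their fast sensor, whereas synaptotagmin 1 serves most forebrain excitatory synapses, and the antibody to synaptotagmin 2 is widely used to mark PV+ terminals in cortex.

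The total of estimated counts per sample lay between 44064161 and 49413273, and the 9 genes had between 1856 (*Syt7* in vehicle replicate 1) and 190683 (*Snap25* in CNO replicate 4) counts per sample, so that counting error was small beside the spread between samples. *Fos*, an immediate early gene that follows neuronal activity, lay between 36.9 and 83.7 TPM (a level corrected for transcript length and scaled to the same total in every sample) with CNO and between 13.8 and 20.6 TPM with vehicle (log2 fold change 1.93, adjusted p = 0.052 in edgeR's quasi-likelihood test). All 10 PV+ interneuron markers listed were measured, including *Pvalb* at 300.1 to 1160 TPM and the GABA genes *Gad1* at 509 to 1817 TPM and *Slc32a1* at 4.82 to 40.9 TPM. The GABA genes of this list are shared with other interneurons, so its sum does not stand for PV+ cells alone. Markers of other cells were measured too, with the vesicular glutamate transporter *Slc17a7* at 331 to 547 TPM and *Neurod6* at 21.3 to 42.5 TPM, and no marker of any list was at 0 throughout. The summed level of the 10 PV+ markers ranged from 2481 to 3859 TPM with CNO and from 1182 to 3083 TPM with vehicle, and that of 12 pyramidal cell markers from 1487 to 2034 and from 1694 to 2386 TPM. The sums with CNO and with vehicle were 595.8 to 690.4 and 682.8 to 801.4 TPM for 6 markers of other interneurons (*Sst*, *Vip* and others), and 186 to 295 and 234 to 338 TPM for 6 astrocyte markers (*Aqp4* and others). They were 563 to 1020 and 777 to 999 TPM for 6 oligodendrocyte markers (*Mbp* and others), 61.5 to 90.7 and 76.7 to 104 TPM for 6 microglia markers (*Cx3cr1* and others), and 38.9 to 92.1 and 53.4 to 77.5 TPM for 5 blood vessel markers (*Cldn5* and others). Vehicle replicate 1 stood apart: it had the lowest PV+ sum (1182 TPM, against 2481 TPM or more in the other 7 samples) and the largest share of counts in its 10 most abundant genes (32.3%, against 21.0% to 27.2%). Its sums were also the highest for pyramidal cells (2386 TPM, against at most 2255 TPM), astrocytes (338, against at most 295 TPM) and microglia (104, against at most 90.7 TPM). Its sums for other interneurons, oligodendrocytes and blood vessels were not the highest. In such bulk samples fewer cells of a type and less mRNA per cell cannot be told apart.

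The 9 genes lie on 8 chromosomes. In GENCODE M21 on GRCm38 *Syt2* spans chr1:134646677-134762593 on the forward strand, *Syt1* chr10:108497650-109010982 on the reverse strand and *Syt7* chr19:10389090-10453180 on the forward strand. *Cplx1* lies at chr5:108518554-108550024 (reverse), *Cplx2* at chr13:54371349-54383917 (forward), *Vamp1* at chr6:125215551-125245964 (forward) and *Vamp2* at chr11:69088490-69092384 (forward). *Stx1a* is at chr5:135023482-135051100 (forward) and *Snap25* at chr2:136713453-136782428 (forward). Counts here are estimates for the transcripts of a gene, summed over the gene. Of the exon bases of *Syt7*, 5.13% overlap *Gm26859* on the opposite strand, and reads of the 2 genes can be told apart there only if strand was used. No exon of the other 8 genes overlaps another gene, and at most 1.61% of their 31-base stretches occur in transcripts of other genes.

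Promoter sequence from RefSeq on GRCm38.p6 was found for 6 of the 9 genes, in 8 windows of 250 bases before to 50 after a transcription start. None was found for *Snap25*, *Vamp2* or *Syt7*, whose levels also ran with that of *Syt2*. The upstream stretches of *Syt2*, *Cplx1* and *Vamp1* are shown because the levels of these 3 genes ran closely together from sample to sample, as described further on. They are written 5′ to 3′ on the strand of the gene, with the matches to AAGGTCA (bound by estrogen-related receptors) and GGGCGG (SP1), on either strand, in capitals. The first *Syt2* promoter is chr1:134646362-134646611 (forward), that of *Cplx1* chr5:108550028-108550277 (reverse) and that of *Vamp1* chr6:125215331-125215550 (forward, without the last 30 bases, which are annotated as exon).
Syt2: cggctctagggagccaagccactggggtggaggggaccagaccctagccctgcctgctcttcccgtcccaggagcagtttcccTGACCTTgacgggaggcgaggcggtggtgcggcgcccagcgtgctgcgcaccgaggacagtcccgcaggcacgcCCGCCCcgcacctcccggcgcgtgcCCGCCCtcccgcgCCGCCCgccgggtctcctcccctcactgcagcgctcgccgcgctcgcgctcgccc
Cplx1: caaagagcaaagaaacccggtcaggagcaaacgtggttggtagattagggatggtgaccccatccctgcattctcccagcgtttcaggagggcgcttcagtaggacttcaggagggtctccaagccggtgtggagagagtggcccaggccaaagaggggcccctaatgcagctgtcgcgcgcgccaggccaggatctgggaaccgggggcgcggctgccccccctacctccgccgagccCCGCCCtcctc
Vamp1: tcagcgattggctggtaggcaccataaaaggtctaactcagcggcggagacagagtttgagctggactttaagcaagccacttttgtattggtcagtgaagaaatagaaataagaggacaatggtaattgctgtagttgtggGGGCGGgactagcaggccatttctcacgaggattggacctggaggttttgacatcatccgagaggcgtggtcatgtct
The *Syt2* stretch holds an AAGGTCA match at base -167 from the start, on the reverse strand, and GGGCGG matches at -93, -68 and -55. *Cplx1* has a GGGCGG match at -11 and *Vamp1* one at -108. GGGCGG also occurs in windows of *Stx1a* and *Syt1*, whose levels did not rise with that of *Syt2* over the samples pooled. Over the 8 windows of the 6 genes, GGGCGG was found in 6 (35.7% of all 32851 promoters of this length hold it), AAGGTCA in 1 (4.72%), TGANTCA (AP-1) in 1, the second *Syt2* promoter (7.81%), and TGACGTCA (cAMP response element) in 0 (1.79%). CANNTG (E-box), not capitalised, was found in 6 of the 8 windows and in 72.3% of all promoters. No match overlapped another in these windows. Both strands were searched, and a match describes the letters only.

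By TPM the machinery of these samples was led by *Snap25* and *Cplx1*, and *Syt1* exceeded *Syt2* in every sample. Markers of other cells were measured in the same samples (*Slc17a7* at 331 to 547 TPM), so these are not levels of PV+ cells alone. The part of other cells in the levels was not tested. The mean level over the 8 samples was 3507 ± 611 TPM (SD, n = 8) for *Snap25*, 2470 ± 657 for *Cplx1*, 912.5 ± 80.7 for *Vamp2*, 753 ± 210 for *Vamp1*, 348.3 ± 30.3 for *Syt1*, 145.5 ± 20.9 for *Stx1a*, 97.6 ± 33.5 for *Syt2*, 45.0 ± 7.4 for *Cplx2* and 17.9 ± 1.8 for *Syt7*. *Snap25*, *Cplx1* and both vesicle SNAREs stood above all 3 sensors, and *Cplx2* and the slow sensor *Syt7* were the least abundant. Each gene was compared with the next in this order within samples, by a two-sided exact sign-flip permutation test of log2 TPM adjusted over the 8 pairs. Of these pairs, 5 kept their order in 8 of 8 samples (exact permutation p = 0.0078, the smallest that 8 samples allow, adjusted p = 0.0125), from *Snap25* over *Cplx1* (1.46-fold by mean) to *Cplx2* over *Syt7* (2.5-fold). The closest of them was *Vamp2* over *Vamp1*, where the ratio in single samples ran from 1.01 to 2.15. *Vamp1* exceeded *Syt1* in 7 of 8 samples (exact p = 0.0156, adjusted 0.0179) and *Syt2* exceeded *Cplx2* in 7 of 8 (exact p = 0.0156, adjusted 0.0179), with vehicle replicate 1 the exception in both. *Stx1a* exceeded *Syt2* in 7 of 8 samples (exact p = 0.0312, adjusted 0.0312), with CNO replicate 4 the exception. Every neighbour in the order therefore differed beyond the spread between samples, although an error in the transcript lengths behind TPM would be shared by all samples and is not in these tests. The order itself was taken from the means of these same samples, so the tests are no independent check of it.

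The range between samples differed among the genes, and 1 library set much of it. The highest sample exceeded the lowest 4.1-fold for *Syt2*, 2.99-fold for *Cplx1* and 2.94-fold for *Vamp1*, against 1.82-fold for *Snap25*, 1.59-fold for *Cplx2*, 1.56-fold for *Stx1a*, 1.38-fold for *Vamp2*, 1.35-fold for *Syt7* and 1.3-fold for *Syt1*. Vehicle replicate 1 was the lowest sample for 6 of the 9 genes. Without it, an alternative chosen after seeing the data, the fold was 2.0 for *Syt2*, 1.58 for *Cplx1* and 1.82 for *Vamp1*, beside 1.3 for *Syt1*, 1.59 for *Cplx2* and 1.19 for *Vamp2*, so that the complexins then had nearly the same range.

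**Figure D1:**
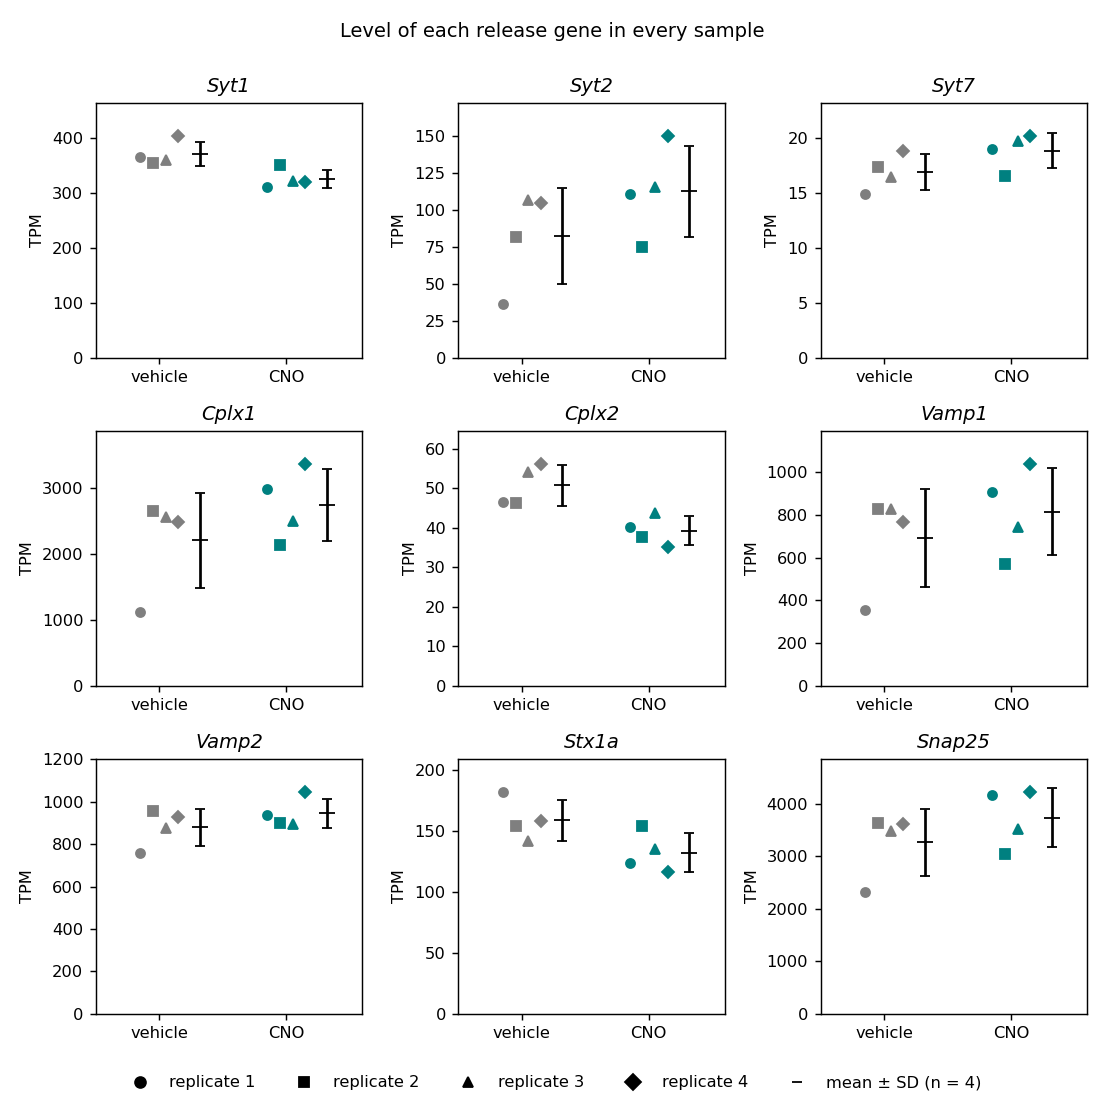
Level (TPM, linear axis from 0) of the 9 release genes in every vehicle (grey) and CNO (teal) sample. Symbols mark the replicate number and black bars the mean ± SD of 4 samples. Vehicle replicate 1 is the lowest point for *Syt2* (36.5 TPM), *Cplx1* (1121 TPM) and *Vamp1* (352 TPM), but not for *Syt1*.

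No calcium sensor passed the adjusted threshold between CNO and vehicle in the test over all genes. *Syt2*, the fast sensor of PV+ terminals, was at 111, 74.7, 115 and 150 TPM in CNO replicates 1 to 4 and at 36.5, 81.9, 107 and 105 TPM in vehicle replicates 1 to 4. Vehicle replicate 1 was less than any other sample and CNO replicate 4 more, and the groups overlapped. The fitted change was 1.48-fold (95% interval 0.875 to 2.51), or 0.57 on the log2 scale (SE 0.345, adjusted p = 0.817 in edgeR's quasi-likelihood test), and without vehicle replicate 1 it was 0.29 (interval -0.20 to 0.79, unadjusted p = 0.215, adjusted p = 1.0 in the same edgeR test). *Syt1*, the sensor of most excitatory terminals, was at 311, 351, 321 and 320 TPM with CNO and at 366, 355, 359 and 403 TPM with vehicle. All vehicle samples lay above all CNO samples in TPM, but the groups overlapped in CPM (counts per library size, after scaling of the libraries by trimmed means, TMM), at 515 to 548 and 540 to 647 CPM. The fitted log2 fold change was -0.13 (SE 0.104, interval -0.36 to 0.10, adjusted p = 0.817 in edgeR). *Syt7*, a slow, high-affinity sensor linked to asynchronous release and vesicle replenishment, was at 19.0, 16.5, 19.8 and 20.2 TPM with CNO and at 15.0, 17.4, 16.4 and 18.9 TPM with vehicle. Its groups overlapped, and its log2 fold change was 0.22 (SE 0.119, interval -0.04 to 0.48), becoming 0.14 without vehicle replicate 1.

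The complexins went opposite ways, and neither passed the adjusted threshold. *Cplx1*, the main complexin of fast inhibitory neurons, was at 2985, 2125, 2492 and 3355 TPM with CNO and at 1121, 2643, 2559 and 2482 TPM with vehicle. Vehicle replicate 1 lay below all other samples, the remaining vehicle samples lay between CNO replicates 2 and 1, and the groups overlapped. The fitted log2 fold change was 0.38 (SE 0.281, interval -0.24 to 1.00, adjusted p = 0.817 in edgeR) and 0.14 without vehicle replicate 1. *Cplx2*, which prevails in excitatory cells of the forebrain, was at 40.2, 37.7, 43.7 and 35.2 TPM with CNO and at 46.5, 46.2, 54.2 and 56.0 TPM with vehicle. Every vehicle sample exceeded every CNO sample in TPM, while in TMM-scaled CPM the groups overlapped (78.8 to 99.2 with CNO, 94.3 to 121.4 with vehicle). *Cplx2* had the smallest p of the 9 genes, with a log2 fold change of -0.30 (SE 0.117, interval -0.56 to -0.05, unadjusted p = 0.0250, adjusted p = 0.817 in edgeR), that is 0.81-fold. Without vehicle replicate 1 the difference was -0.37 (unadjusted p = 0.00546, adjusted p = 1.0 in edgeR). Without vehicle replicate 3 or 4 or without CNO replicate 2 its unadjusted p was above 0.05.

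Among the vesicle SNAREs, *Vamp1*, a synaptobrevin prominent in brainstem and spinal cord and in fast-spiking interneurons, was at 909, 569, 744 and 1036 TPM with CNO and at 352, 825, 825 and 764 TPM with vehicle. Again vehicle replicate 1 was lowest, CNO replicate 2 came next and CNO replicate 4 was highest, so that the groups overlapped. Its log2 fold change was 0.30 (SE 0.291, interval -0.34 to 0.94, adjusted p = 0.818 in edgeR) and was 0.07 (interval -0.36 to 0.49) when vehicle replicate 1 was left out. *Vamp2*, the common synaptobrevin of the forebrain, was at 940, 899.6, 896 and 1044 TPM with CNO and at 759, 956, 876 and 929 TPM with vehicle. The groups overlapped, with a log2 fold change of 0.19 (SE 0.144, interval -0.13 to 0.50) that became 0.08 without vehicle replicate 1. Of the plasma membrane SNAREs, *Snap25*, which brings a pair of helices to the SNARE bundle, was at 4171, 3041, 3534 and 4222 TPM with CNO and at 2321, 3647, 3494 and 3627 TPM with vehicle. Its log2 fold change of 0.26 (SE 0.200, interval -0.18 to 0.70) became 0.11 without vehicle replicate 1, again with overlapping groups. *Stx1a*, a syntaxin that pairs with SNAP25, was at 123, 154, 135 and 117 TPM with CNO and at 182, 154, 142 and 158 TPM with vehicle. Here vehicle replicate 1 was the highest sample and CNO replicate 4 the lowest, the reverse of *Syt2*, and the groups overlapped. The log2 fold change was -0.20 (SE 0.0932, interval -0.40 to 0.01, unadjusted p = 0.0574, adjusted p = 0.817 in edgeR).

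In all, the mean was higher with CNO for 6 of the 9 genes and lower for 3 (*Syt1*, *Cplx2* and *Stx1a*), and the median log2 fold change was 0.22 against 0.00 over all 17495 genes tested. None of the 9 passed an adjusted p of 0.05, as did 0 of the 17495 genes (0.0%), and 1 of 9 (*Cplx2*) was under an unadjusted p of 0.05, as were 716 genes or 4.09% of all in edgeR's test. In CPM the groups overlapped for all 9 (they did not for 2.42% of all genes), and in TPM they did not overlap for 2, *Syt1* and *Cplx2* (3.17% of all genes), a scale on which the median gene lay lower with CNO (-0.06 on the log2 scale). The intervals still allow sizeable changes, up to 2.51-fold for *Syt2*, so that the test does not show that these genes did not respond. The PV+ minus pyramidal marker index, the mean log2 CPM of the 10 PV+ markers minus that of the 12 pyramidal markers, was set beside these values. It was 1.38, 0.66, 1.19 and 1.79 in CNO replicates 1 to 4 and -0.51, 0.78, 1.24 and 1.09 in vehicle replicates 1 to 4. Its groups overlapped, with vehicle replicate 1 the lowest sample and CNO replicate 4 the highest. Neither its difference between the groups nor its part in the differences of the 9 genes was tested.

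**Figure D2:**
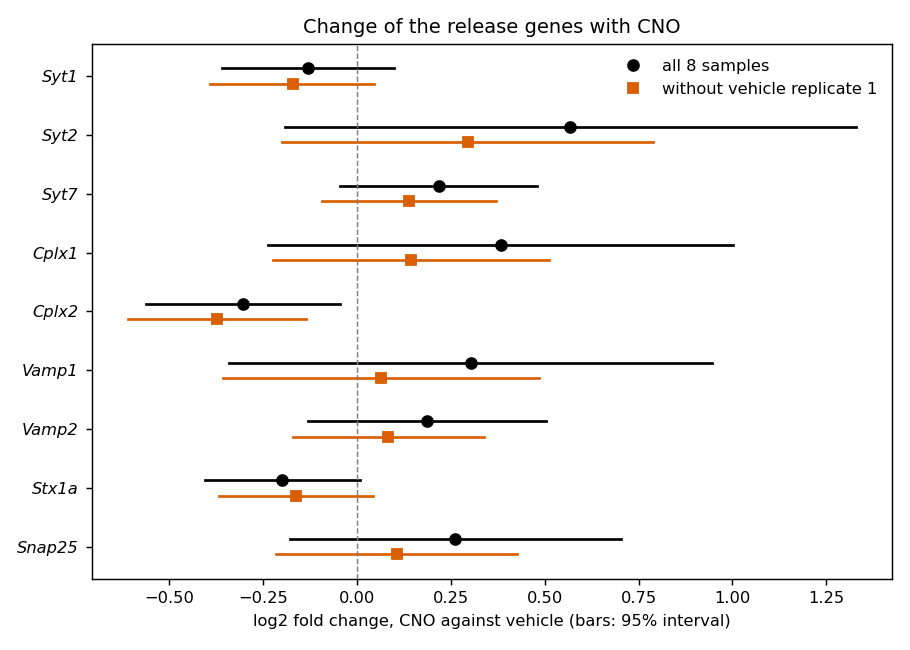
Log2 fold change of the 9 release genes, CNO against vehicle, from edgeR's fit (x axis), with 95% intervals as bars, in all 8 samples (black) and without vehicle replicate 1 (orange). The values for *Syt2*, *Cplx1*, *Vamp1*, *Vamp2*, *Snap25* and *Syt7* lie nearer to 0 without that sample (*Vamp1* 0.30 and 0.07), and those for *Cplx2* (-0.30 and -0.37) and *Syt1* (-0.13 and -0.17) lie farther from it.

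Which paralogue prevails was compared as the share of one in the summed TPM of both. *Syt2* made up 26.3%, 17.6%, 26.4% and 31.9% of *Syt1* plus *Syt2* in CNO replicates 1 to 4 and 9.08%, 18.8%, 22.9% and 20.6% in vehicle replicates 1 to 4. The means were 25.5% ± 5.9 (SD, n = 4) and 17.8% ± 6.1 (SD, n = 4), a difference of 7.71 percentage points (two-sided exact permutation test, p = 0.114, adjusted over the 3 shares 0.171). CNO replicate 2 fell below 3 of the 4 vehicle samples, and without vehicle replicate 1 the difference was 4.8 points (exact permutation p = 0.229). The total of *Syt1* plus *Syt2* stayed between 402 and 508 TPM.

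*Cplx1* was nearly all of *Cplx1* plus *Cplx2*, at 98.7%, 98.3%, 98.3% and 99.0% with CNO and 96.0%, 98.3%, 97.9% and 97.8% with vehicle. The difference was 1.04 percentage points (98.54% ± 0.34 against 97.51% ± 1.01, SD, n = 4 each, exact permutation p = 0.0857, adjusted 0.171), or 0.54 points (exact permutation p = 0.171) without vehicle replicate 1. *Vamp1* and *Vamp2* were closer to parity, with *Vamp1* at 49.2%, 38.8%, 45.4% and 49.8% with CNO and at 31.7%, 46.3%, 48.5% and 45.1% with vehicle. The groups overlapped (45.8% ± 5.1 against 42.9% ± 7.6, SD, n = 4 each, difference 2.86 points, exact permutation p = 0.543), and the sign turned to -0.875 points (exact permutation p = 0.971) without vehicle replicate 1. No difference in the 3 shares exceeded the spread of the samples by this test. The smallest p that 4 samples against 4 can give is 0.0286. With vehicle replicate 1 left out, the permutation cannot give a p under 0.05, so those p-values do not test the shares at that threshold.

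**Figure D3:**
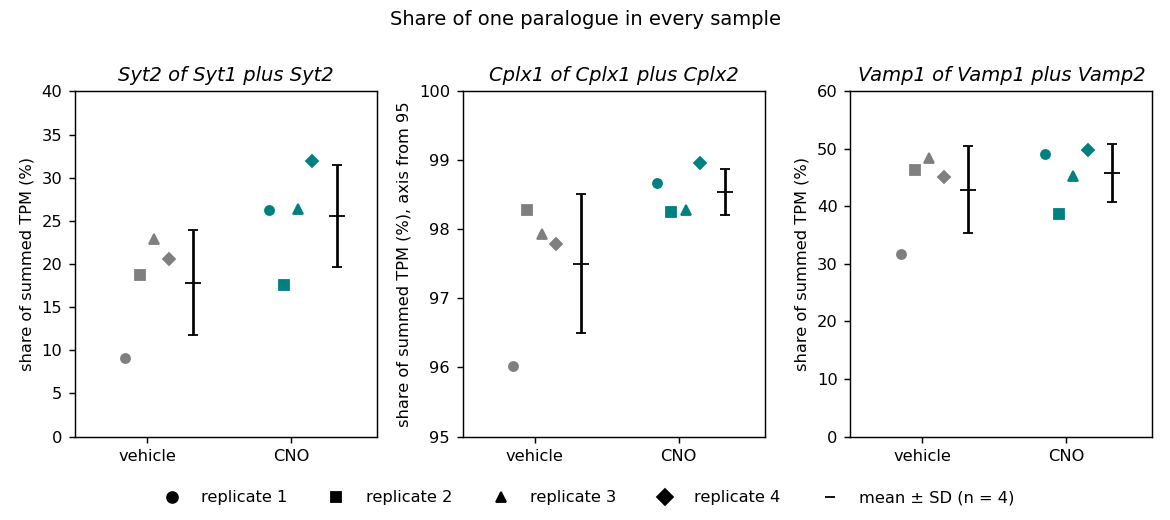
Share of summed TPM (%) of *Syt2* in *Syt1* plus *Syt2* (axis from 0), of *Cplx1* in *Cplx1* plus *Cplx2* (axis from 95) and of *Vamp1* in *Vamp1* plus *Vamp2* (axis from 0), in each vehicle (grey) and CNO (teal) sample, with the mean ± SD of 4 samples. Vehicle replicate 1 is the lowest point in each panel (9.08%, 96.0% and 31.7%).

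From sample to sample, most of the 9 genes ran together with *Syt2* and *Stx1a* ran the other way. *Syt1* and *Cplx2* did not run with *Syt2* over the 8 samples pooled. Over the 8 samples, log2 CPM of *Syt2* was related to that of *Cplx1* (r = 0.970, rho = 0.881), *Snap25* (r = 0.962, rho = 0.929), *Vamp1* (r = 0.961, rho = 0.881), *Vamp2* (r = 0.951, rho = 0.857) and *Syt7* (r = 0.923, rho = 0.905). Exact permutation over all orders, adjusted over the 8 pairs, gave p between 0.00129 and 0.00218 for these Pearson values and between 0.00892 and 0.0143 for the Spearman values. Orders were permuted without regard to group, so a difference between the groups enters these p-values. *Stx1a* had r = -0.853 (exact permutation, adjusted p = 0.00595) and rho = -0.929 (adjusted p = 0.00892 by the same permutation). For *Syt1* r was 0.128 and rho 0.024 (exact permutation, adjusted p = 0.838 and 1.0), and for *Cplx2* r was 0.058 (exact permutation, adjusted p = 0.902) and rho was 0 (adjusted p = 1.0 by the same permutation). The values rest in part on the samples farthest from the median of *Syt2*, vehicle replicate 1 and CNO replicate 4. With both left out (n = 6), r was 0.831 for *Syt7*, 0.808 for *Snap25*, 0.772 for *Cplx1*, 0.755 for *Vamp1*, 0.706 for *Vamp2* and -0.608 for *Stx1a*, and only *Syt7* (exact permutation p = 0.0444) and *Snap25* (exact permutation p = 0.0278) were under 0.05 of the 6. With vehicle replicate 1 alone left out, r was 0.888 for *Cplx1*, 0.861 for *Vamp1*, 0.861 for *Vamp2* and -0.794 for *Stx1a*. It was -0.09 for *Syt1* and -0.02 for *Cplx2*. As deviations from the group means in all 8 samples, *Syt1* and *Cplx2* had a positive r with *Syt2* (0.66 and 0.664). On that scale r was 0.963 for *Cplx1*, 0.967 for *Vamp1*, 0.954 for *Snap25*, 0.937 for *Vamp2*, 0.901 for *Syt7* and -0.857 for *Stx1a*. These within-group values were not tested. Against the other 3 vehicle samples on average, vehicle replicate 1 was lower on the log2 scale, with a difference of -1.59 for *Syt2*, -1.30 for *Cplx1*, -1.28 for *Vamp1*, -0.71 for *Snap25*, -0.44 for *Vamp2*, -0.31 for *Syt7*, -0.26 for *Cplx2* and -0.16 for *Syt1*, and was 0.15 higher for *Stx1a*.

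The paralogue shares were set beside the marker index, which holds none of the 9 genes. The *Syt2* share was related to it with r = 0.963 and rho = 0.929 over the 8 samples (exact permutation, adjusted over the 3 shares, p = 0.000447 and 0.00335), and with r = 0.903 (n = 6, exact permutation p = 0.0222) without vehicle replicate 1 and CNO replicate 4, the samples farthest from the median index. The *Vamp1* share had r = 0.943 and rho = 0.929 (adjusted exact permutation p = 0.00093 and 0.00335), and r = 0.801 (exact permutation p = 0.0417) without both. For the *Cplx1* share r was 0.906 and rho 0.690 (adjusted exact permutation p = 0.0109 and 0.0694), and with both samples left out r was 0.124 (exact permutation p = 0.814), so that this relation rests on them. Index and shares come from the same libraries, and the labels give no batch within which to repeat the relation. Here too the permutation ignored group, so these p-values do not separate a group difference from a relation within groups.

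**Figure D4:**
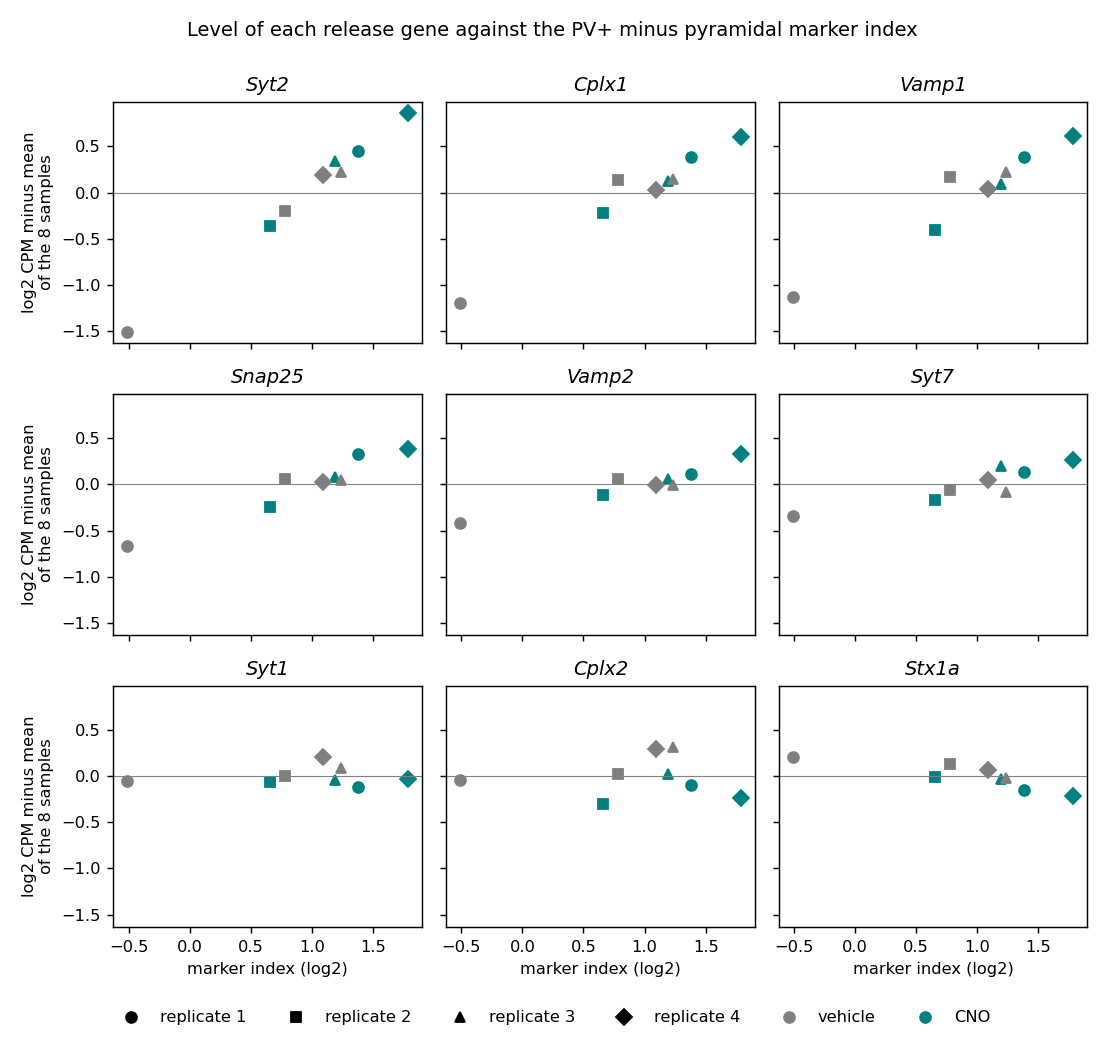
Log2 CPM of each release gene minus its mean over the 8 samples (y axis) against the PV+ minus pyramidal marker index (x axis, log2 units), vehicle in grey and CNO in teal, with symbols for the replicate number. *Syt2*, *Cplx1* and *Vamp1* span the widest range from vehicle replicate 1 (index -0.51) to CNO replicate 4 (index 1.79), and *Stx1a* slopes downward. *Syt1* and *Cplx2* show no such slope over the samples of both groups pooled.

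Further genes of the release pathway gave a setting for these values. Of 14 other calcium sensors and C2-domain proteins, 6 were higher and 8 lower with CNO (median log2 fold change -0.08), and 3 were under an unadjusted p of 0.05, all lower: *Syt5* (log2 fold change -0.26), *Syt6* (-0.27) and *Syt10* (-0.59), a sensor tied to IGF-1 secretion in olfactory bulb neurons. *Syt10* was at 1.36 to 2.65 TPM with CNO and 2.89 to 3.64 TPM with vehicle, without overlap. The most abundant were *Syt11* (263 TPM, log2 fold change 0.05), *Syt13* (131 TPM, 0.01) and *Syt3* (84.0 TPM, 0.22). Of 19 tested genes (21 listed, without *Vamp7* and *Cplx4*) for other SNAREs, complexins and SNARE handling, 11 were higher and 8 lower (median 0.05), and 1 was under 0.05, the endosomal SNARE *Vamp3* (log2 fold change -0.26, or -0.17 without vehicle replicate 1). *Snap47* was at 654 ± 70 TPM with CNO and 609 ± 114 TPM with vehicle (log2 fold change 0.17), and *Nsf*, the ATPase that takes spent SNARE bundles apart, at 632 ± 72 and 605 ± 71 TPM (0.16; SD, n = 4 in each case).

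Of 19 priming and active zone genes, 9 were higher and 10 lower (median 0.00), and 3 were under an unadjusted p of 0.05. *Unc13c*, the Munc13-3 priming factor, was at 2.80 to 4.25 TPM with CNO and 4.96 to 6.14 TPM with vehicle, without overlap (log2 fold change -0.45, SE 0.138, unadjusted p = 0.00767, adjusted p = 0.817 in edgeR). *Cadps2*, a priming factor of dense-core vesicles, had a log2 fold change of -0.31 and the liprin gene *Ppfia4* one of 0.39, both with overlapping groups. The vesicle GTPases *Rab3a* (1555 TPM, log2 fold change 0.23) and *Rab3b* (299 TPM, 0.23) and the priming gene *Cadps* (162 TPM, 0.25) were the most abundant. Of 10 genes for vesicle membrane and associated proteins 6 were higher and 4 lower (median 0.04) and 0 were under 0.05, with *Syp* (628 TPM, log2 fold change 0.08), *Syn1* (555 TPM, 0.07) and *Syn2* (247 TPM, 0.03) the most abundant. No gene of the 4 lists passed an adjusted p of 0.05 in edgeR, as no gene did at all. The 7 genes under an unadjusted p of 0.05 were 7 of 62, beside 4.09% of all genes, and without vehicle replicate 1 *Syt10*, *Unc13c* and *Ppfia4* were still under it and the other 4 were not.

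**Figure D5:**
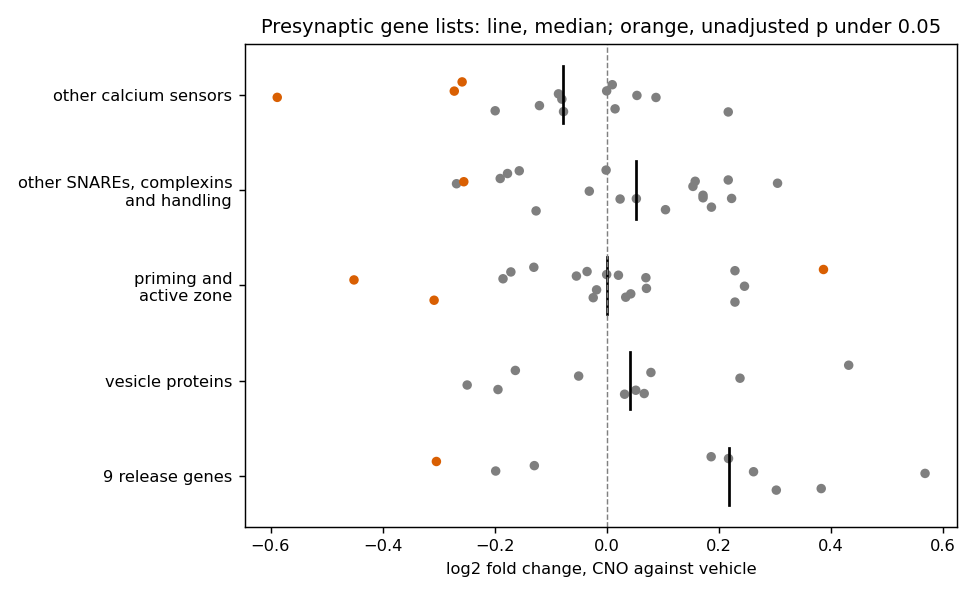
Log2 fold change, CNO against vehicle (x axis), of single genes of 4 presynaptic lists and of the 9 release genes (rows, with points spread vertically for legibility). Black lines are medians (-0.08, 0.05, 0.00, 0.04 and 0.22 from the top), and orange marks an unadjusted p under 0.05 in edgeR, 0 of which passed after adjustment.

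The genes whose levels most resembled *Syt2* over the 8 samples, by Pearson correlation of log2 CPM among 9652 tested genes with a mean above 10 TPM, were *Kcnc2* (r = 0.998), which encodes the Kv3.2 channel subunit of fast-spiking cells and is one of the PV+ markers, *Gpr176* (0.998), *Osbpl9* (0.996), *Bloc1s6* (0.996) and *Tmbim4* (0.995). *Kcnc2* lay between 46.1 and 132 TPM and *Gpr176* between 9.04 and 24.3 TPM. Only *Kcnc2* stayed among the first 5 when vehicle replicate 1 was left out or when deviations from the group means were used. By Spearman correlation the first 5 were other genes, but equal coefficients were ranked by gene identifier and these genes follow that order. Spearman correlation therefore cannot tell whether the 5 named genes rank lower. For *Syt1* the closest were *Fam171a1* (r = 0.930), *Ctgf* (0.928), *Wfs1* (0.927), *Limch1* (0.926) and *Noc2l* (0.920), of which 3 stayed without vehicle replicate 1, 1 by Spearman correlation and 0 by deviations from the group means. These coefficients are the highest of 9652 and describe likeness across 8 libraries only.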

How the data were processed

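Ribosome-associated mRNA of PV+ interneurons was sequenced from 4 CNO and 4 vehicle samples. Per the methods, the authors ran Trim Galore on the reads, STAR against GRCm38 (mm10), and Salmon with tximport for gene values. The authors deposited estimated counts, which are not normalized, and TPM, which are corrected for transcript length. Whether counting used strand is not given in the sources used here.

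Estimated counts were rounded to whole numbers. Genes with under 10 counts in 4 or more of the 8 samples were left out, libraries were scaled by TMM, and the groups were tested with edgeR's quasi-likelihood method with Benjamini-Hochberg adjustment over all 17495 genes tested (edgeR 4.0.16, R 4.3.3). Log2 CPM used a prior count of 2. With 44064161 to 49413273 counts per sample, 3 counts are 0.0607 to 0.0681 CPM. Shares and orders of levels were taken from TPM and compared by exact permutation (scipy 1.17.1). The code was checked on simulated counts. p-values measure the spread between pooled samples. Alternatives used edgeR's robust dispersion with the likelihood ratio test, DESeq2 1.42.0, limma 3.58.1 on log2 TPM, other scalings and filters, a replicate block, and each sample left out.

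The 9 genes, the lists and the markers were chosen with earlier results of these data known. Genes named are the 9, *Fos*, the 3 most abundant of each list and those at p under 0.05, fixed markers, and the 5 most like *Syt2* and *Syt1*. A gene that the rule names is not reported here. Of the 45706 gene identifiers 45143 are in GENCODE M21.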

Additional observations from a re-analysis of the deposited data

Results flagged for a closer look

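Vehicle replicate 1 lay far from the other 3 vehicle samples in log2 CPM for 4 of the 9 genes, measured as its gap to the nearest of them over the range of the group. The gap took 0.911 of the range for *Cplx1* (9.90 against 11.12 to 11.24), 0.865 for *Vamp1* (8.62 against 9.80 to 9.98), 0.873 for *Vamp2* (9.22 against 9.64 to 9.70) and 0.945 for *Snap25* (10.92 against 11.61 to 11.65). In 26 groups examined over 13 measures about 1.3 such gaps arise by chance, and these 4 genes share a library. In the same library the PV+ markers summed to 1182 TPM and *Pvalb* was at 300.1 TPM, the lowest of the 8 samples. The part of the marker levels in these gaps was not tested.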

How the results depend on the processing

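None of the 9 genes passed an adjusted p of 0.05 under any of 16 alternatives, and no log2 fold change changed sign (range of *Syt2* 0.29 to 0.75, of *Vamp1* 0.07 to 0.46, adjusted p of all 9 between 0.472 and 1.0). The number of all genes past it, 0 in edgeR's quasi-likelihood test (716 at an unadjusted p under 0.05), was 15 with robust dispersion and the likelihood ratio test, 11 with DESeq2, 4 without the filter on low counts, and 0 to 2 when each sample was left out (2 without CNO replicate 1). Of the 9 genes, the number under an unadjusted p of 0.05 was 1 and became 2 (*Cplx2* and *Stx1a*) with DESeq2, with library size only and with limma on log2 TPM with 1 or 0.1 added, and 0 to 2 with samples left out (0 without vehicle replicate 4, 2, *Stx1a* and *Syt7*, without CNO replicate 2). The difference in the *Vamp1* share ran from -0.875 to 5.2 percentage points, with the sign turned only without vehicle replicate 1. The number of neighbours in the order of levels that kept it in every sample was 5, and 6 and 7 within vehicle and CNO samples alone. Shares of estimated counts in place of TPM kept direction and side of the threshold.

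Samples of the same replicate number did not deviate together throughout (r = -0.02, -0.14, 0.13 and 0.26 for numbers 1 to 4 over 15173 genes). Only CNO replicate 3 had the vehicle sample of its own number as its best partner. The numbers were therefore not taken to pair the groups. With a replicate block 0 genes passed, *Cplx2* alone of the 9 was under an unadjusted p of 0.05 (log2 fold change -0.30), and *Syt2* had a log2 fold change of 0.63. The exact permutation p within blocks was 0.25, 0.25 and 0.75 for the *Syt2*, *Cplx1* and *Vamp1* shares. With 4 blocks this permutation cannot give a p under 0.05, so it cannot decide on the shares. With 4 pools a group, the intervals given still allow changes in either direction for 8 of the 9 genes.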

Other observations

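Some partners of the 9 genes were singled out after their values were seen. *Syngr1*, which encodes the vesicle protein synaptogyrin 1, was at 152 ± 17 TPM with CNO and 119 ± 32 TPM with vehicle (SD, n = 4 each), with a log2 fold change of 0.43 (0.24 without vehicle replicate 1) and an unadjusted p of 0.0701 in edgeR's test. The vesicle protein gene *Sv2b* had a log2 fold change of -0.25 and its paralogue *Sv2a* one of 0.24 (-0.20 and 0.09 without vehicle replicate 1), and neither was under an unadjusted p of 0.05.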
